A study of Mus musculus with 29 samples.

Results

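Adult microglial IRF8 binding regions that lay outside both enhancer-associated histone marks were examined. IRF8 consensus regions were built by merging the IRF8 peaks of 3 adult microglia libraries and keeping those supported by at least 2 of them, which gave 16935 regions. Of these, 254 (1.5%) shared no base with a peak in any of 4 wild-type mark libraries, 2 for H3K27ac and 2 for H3K4me1, and are called unmarked regions below; they were thus selected on the adult IRF8 peak calls and the wild-type mark peak calls. The other 16681 are called marked regions, and 12900 of them overlapped a peak in all 4 mark libraries.

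All profiles came from CUT&RUN, in which an antibody brings a nuclease to its target on chromatin and the fragments cut free are sequenced. IRF8 was profiled with an antibody to GFP in female mice of the strain labelled IRF8-EGFP, in sorted microglia, the resident macrophages of the brain, from 4 libraries at postnatal day 9 (P9), 3 at postnatal day 14 (P14) and 3 in the adult at 3 months, and in peritoneal macrophages from 3 libraries. H3K27ac, H3K4me1 and PU.1 were profiled in microglia of 3-month-old female mice labelled WT or IRF8KO (KO below), which lack IRF8, with 2 libraries per target and genotype. The unmarked class therefore compares IRF8 in one strain with marks in another. The sort that isolated the microglia left H3K27ac consensus regions within 1 kb of the starts of the microglia marker genes P2ry12, Cx3cr1, Sall1 and Siglech, but not of Tmem119, and also at 6 of 10 endothelial, 3 of 10 astrocyte, 3 of 10 oligodendrocyte and 1 of 15 neuronal marker genes. Libraries held 7250496 to 24705885 fragments, and no label says that replicates came from separate mice, so tests over libraries measure the spread between these libraries only.

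IRF8 is a transcription factor of the interferon regulatory factor family that acts mainly in haematopoietic lineages. It binds DNA weakly alone and is often recruited with PU.1, an ETS factor that defines macrophages, to a composite element in which an ETS half-site and an IRF half-site stand side by side. H3K4me1 marks poised and active enhancers, and H3K27ac marks active enhancers and promoters.

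The composite ETS-IRF element was searched as GGAA, any 2 bases and GAAA, on both strands, in the 200 bp around each region centre. It occurred in 23 of 254 unmarked regions (9.06%, 95% Wilson interval 6.11 to 13.2) and in 6.21% of marked regions. Windows of the same length 1 kb away from the unmarked regions held it in 1.18% (0.402 to 3.41). The 6 unmarked regions of highest rank with the element are printed because they show it in unmarked sequence, read 5′ to 3′ on the strand of the element, with the element in capitals (RefSeq GRCm38.p6, the assembly of mm10).
Runx3 region, chr4:135203521-135203590, plus strand: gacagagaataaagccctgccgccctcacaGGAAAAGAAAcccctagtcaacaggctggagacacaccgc
Tmem107 region, chr11:69078968-69079037, plus strand: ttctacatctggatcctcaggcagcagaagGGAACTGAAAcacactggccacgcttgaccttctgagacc
Far1 region, chr7:113468589-113468658, minus strand: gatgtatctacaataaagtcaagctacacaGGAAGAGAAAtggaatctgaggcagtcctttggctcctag
Add3 region, chr19:53234044-53234113, plus strand: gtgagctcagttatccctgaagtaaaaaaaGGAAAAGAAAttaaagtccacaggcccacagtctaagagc
Col8a2 region, chr4:126305625-126305694, minus strand: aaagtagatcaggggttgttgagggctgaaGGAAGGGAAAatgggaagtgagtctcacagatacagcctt
Fbxw4 region, chr19:45623866-45623935, plus strand: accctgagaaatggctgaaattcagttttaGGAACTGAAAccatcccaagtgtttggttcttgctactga

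Each region is named by the gene it overlaps or, where it overlaps none, by the nearest protein-coding start. The Runx3 region (chr4:135203309-135203711, intergenic) lay 49.1 kb from the start of Runx3, a Runt family transcription factor. Its fold enrichment over the local control background, which is the authors' value for each peak, was 12.4 in adult replicate 1 and 9.78 in replicate 2, with no peak in replicate 3. Macrophage replicates 1 and 2 also listed it, at 5.13-fold and 3.83-fold, as did both KO H3K4me1 libraries, and no P9 or P14 library did. The Tmem107 region had 10.0-fold and 5.5-fold peaks in adult replicates 2 and 3 and was also listed in 1 P14, 1 macrophage and 1 WT PU.1 library. The Far1 region, 45.3 kb from the start of Far1, a fatty acyl-CoA reductase, had 10.4-fold and 6.4-fold peaks in replicates 1 and 2 and was listed in no other library of the series. The regions in introns of Add3 (adducin, a membrane skeleton protein) and Fbxw4 (an F-box protein) were each seen in adult replicates 1 and 2 and in 1 P14 library, and the Fbxw4 region also in 1 macrophage library (6-fold) and 1 KO H3K4me1 library. The intronic region of Col8a2, a collagen gene, had a peak in all 3 adult libraries at 6.7-fold, 7.3-fold and 6.4-fold, and in 2 P14, 1 WT PU.1 and 1 KO H3K4me1 library.

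Other motifs were described in the same windows. The ETS core GGAAGT stood in 74 unmarked regions (29.1%, 23.9 to 35), in 11% of the shifted windows and in 26.2% of marked regions. A longer PU.1 core, GAGGAAGT, which contains the ETS core, stood in 5.51%, 1.18% and 6.14%. The tandem IRF element (GAAA, any 2 bases, GAAA) stood in 6.69% of unmarked regions, 3.15% of shifted windows and 4.15% of marked regions, with an interval of 4.22 to 10.5 for the first; marked regions of the same width gave 4.41%, within it. The AP-1 motif TGANTCA was present in 9.84%, 5.12% and 6.29%. The GC box GGGCGG, common in promoters, was present in 7.87% of unmarked and 13.5% of marked regions. The CTCF core had no match in an unmarked region, which allows a share of up to 1.49%, and 0.234% of marked regions held it. Marked regions of the same width gave 7.57% for the composite element, 31.4% for the ETS core and 8.21% for the PU.1 core. Each value lay within the interval of the unmarked regions (3.31 to 9.04 for the PU.1 core), so no difference is shown. The values of 6.64% for AP-1 and 14.3% for the GC box lay outside it (6.76 to 14.1 and 5.15 to 11.8). All intervals cover counting error only, and regions are not independent replicates.

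**Figure D1:**
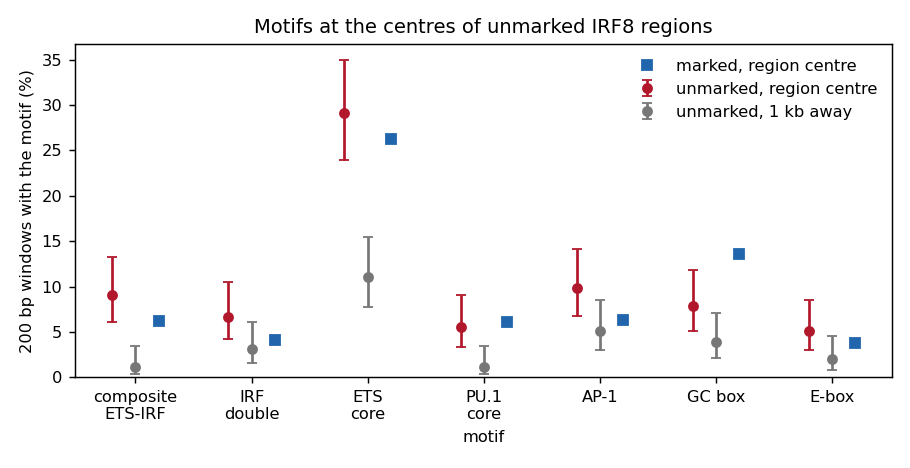
Share of 200 bp windows (%) with each motif on either strand, at the centres of the 254 unmarked regions (red), 1 kb away from them (grey, both with 95% Wilson intervals) and at the centres of the 16681 marked regions (blue squares, no interval drawn). The composite ETS-IRF element stands at 9.06% at unmarked centres against 1.18% in shifted windows.

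The rule itself fixed the distance to the marks and used the adult peaks, so the next values are a description. The nearest wild-type mark peak lay at a median of 3.02 kb, from 15 bp to 29.2 kb. Unmarked regions had a median width of 677.5 bp against 1092 bp for marked regions, and a median highest fold of 6.19 against 7.78. Their strength, the mean percentile of a region's −log10 p within its adult libraries' peak lists, had a median of 45.6 against 59. Of 8 members with a mark within 100 bp, the closest was the Tmem80/Deaf1 promoter (15 bp), and 9 marked regions had 100 bp or less under a mark. These 8 had a median highest fold of 7.35 and those 9 a median of 5.30. On the other threshold, 8425 merged adult regions were unmarked but had a peak in only 1 library. A P14 consensus region stood at 0.202% of them, at 6.15% of unmarked regions with peaks in 2 libraries and at 30.7% of the 75 with peaks in all 3.

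Unmarked regions lay away from genes' starts more often than marked ones. A centre within 1 kb of an annotated start was found for 48 of 254 (18.9%, 14.6 to 24.2), against 33.7% of marked regions and 36% once marked regions were weighted to the same strength. Intergenic centres made up 36.6% (30.9 to 42.7) against 24.4%, while introns took 38.6% against 38.1% and exons 5.91% against 3.81%. The size of this gap moved with the mark libraries used. Without WT H3K27ac replicate 1 the share near starts was 29.0% against 33.5% of marked regions, and without replicate 2 it was 21.3% against 33.7%. With either mark called only where both its libraries had it, the shares were 31% and 33.6%. Where H3K4me1 alone decided the class, the order turned, with 41.1% of 462 unmarked regions against 33.2% of marked ones. Untranslated exon sequence was touched by 13.4% of unmarked and 30.5% of marked regions, and coding sequence by 22.4% and 22.8%. Marked regions of the same width gave 25.9% and 17.8%. The order for coding sequence then turned, within the interval of the unmarked share (17.7 to 28.0). For 35 unmarked regions (13.8%, 10.1 to 18.6) the nearest start was that of a processed pseudogene, against 7.21% of marked regions. CpG frequency was slightly lower, with a median observed over expected ratio of 0.232 against 0.253, and the median GC content was 47.4% against 47.7%.

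**Figure D2:**
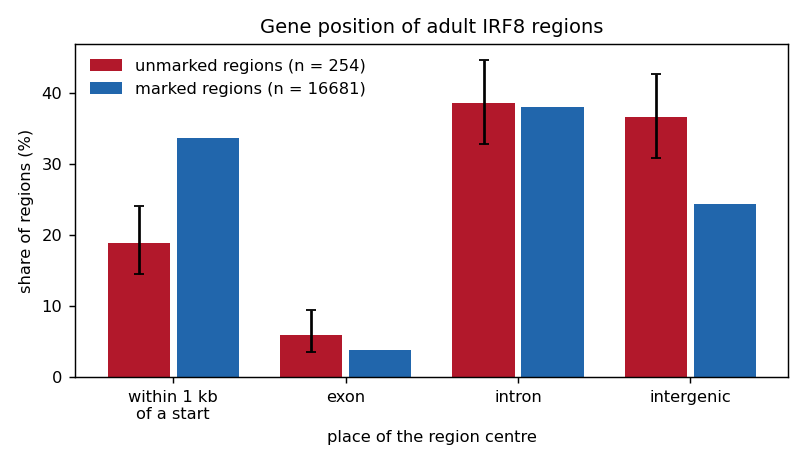
Share of regions (%) by the place of the region centre in GENCODE M21, for 254 unmarked (red, with 95% Wilson intervals) and 16681 marked regions (blue). Unmarked regions are fewer near starts (18.9% against 33.7%) and more numerous between genes (36.6% against 24.4%).

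The promoters that carried an unmarked region were mixed. The Tmem80/Deaf1 region (chr7:141327451-141328382), at the shared start of a ciliary membrane protein gene and a transcription factor gene, had 11.6-fold, 7.72-fold and 9.17-fold peaks in the 3 adult libraries. It was also listed in all 3 P14 libraries (4.58-fold, 6.87-fold and 4.39-fold) and all 3 macrophage libraries (4.33-fold, 3.93-fold and 3.84-fold), but in no P9 or PU.1 library. These folds come from lists called separately, so they describe each library and were not compared between groups. The Nvl promoter (a ribosome biogenesis ATPase) had 8.3-fold, 13.0-fold and 10.0-fold peaks in the adult and was listed in 2 of 3 P14 and 2 of 3 macrophage libraries. At Car5a, a mitochondrial carbonic anhydrase, the 3 adult values lay close together (10.4, 11.5 and 10.5) and 1 macrophage library listed the site. At Hc, which encodes complement component C5, peaks of 10.4-fold and 15.2-fold were seen in adult replicates 1 and 2, and 1 P14 and 1 macrophage library listed it. The Napa promoter (an adaptor of vesicle fusion) was listed in adult replicates 2 and 3 and in 1 further library, and the Gtpbp1 promoter in adult replicates 1 and 2 and 7 further libraries. The remaining 4 of the 10 regions of highest rank at protein-coding starts, at Gm10800, Gm10801, Gm21887 and Gm47283, lay in repeated sequence described below.

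Among intronic, exonic and intergenic members, the highest fold values belonged to a region 92.5 kb from the start of Bdh1 (chr16:31549593-31551573), a ketone body enzyme gene. Its peaks stood at 26.1-fold, 22.5-fold and 15.1-fold in the 3 adult libraries, at 10.3-fold and 6.73-fold in P14 replicates 2 and 3, and at 4.47-fold in 1 P9 library, with none in macrophages. The 120 bases around its adult summit are shown because no other member had a higher fold, and they hold no ETS core on either strand.
Bdh1 region, chr16:31550642-31550761, plus strand: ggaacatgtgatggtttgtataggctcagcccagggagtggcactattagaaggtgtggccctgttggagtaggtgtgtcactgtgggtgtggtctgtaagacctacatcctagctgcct

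An exonic region of Zzef1, a zinc finger and EF-hand gene (chr11:72866229-72867158), followed with 16.6-fold, 22.5-fold and 17.6-fold adult peaks. It was listed in all 3 P14 libraries (8.35-fold, 8.67-fold and 5.94-fold), in 2 P9 libraries (4.98-fold and 5.01-fold) and in 2 macrophage libraries (3.38-fold and 3.36-fold), so each IRF8 group held it in at least 2 libraries, and 1 WT PU.1 library listed it at 4.48-fold. The nearest wild-type mark lay 13.7 kb away, and no KO mark library had a peak there. A region 23.0 kb from the start of Rptor, a subunit of the mTORC1 kinase complex, had 14.9-fold, 12.9-fold and 9.38-fold adult peaks and 1 P14 peak. Members near Il3 (3.74 kb from the start of this cytokine gene, 8.43-fold, 8.05-fold and 11.1-fold) and in an intron of Esr1 (the estrogen receptor, 15-fold, 10.5-fold and 5.05-fold) were chosen for mention after their values were seen.

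Across 13 gene lists with 209 genes, none had an unmarked region in its body or within 1 kb, against a background of 0.674% of all protein-coding genes, while 129 had a marked one. This covered homeostatic microglia genes (0 of 20 unmarked, 20 of 20 marked), disease-associated microglia genes (0 and 9 of 18), interferon-stimulated genes (0 and 16 of 24), antigen presentation genes (0 and 13 of 18) and myeloid transcription factor genes (0 and 17 of 20). The same count was 0 for Toll-like receptor and signalling genes (13 of 16 marked), peritoneal macrophage genes (5 of 12), histone genes (13 of 16) and ribosomal protein genes (11 of 20). Markers of neurons (1 of 15 marked), astrocytes (3 of 10), oligodendrocytes (3 of 10) and endothelial cells (5 of 10) had none either. Over all 21951 protein-coding genes, 148 (0.674%) had an unmarked region and 7533 (34.3%) a marked one, so a count of 0 in these lists is close to the background. Genes named Zfp followed by a number gave 3 of 365 with an unmarked region, namely Zfp273, Zfp286 and Zfp318, and 150 of 365 with a marked one. Zfp318 carried 2 unmarked regions, 1 of them 0.609 kb from a start.

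Unmarked regions were listed on all chromosomes, at differing shares of the adult IRF8 regions. They made up 1.47% of the 16642 autosomal regions, from 0.542% on chromosome 10 (5 of 922) and 0.654% on chromosome 1 (8 of 1223) to 2.33% on chromosome 11 (29 of 1242) and 2.93% on chromosome 17 (23 of 786, 1.96 to 4.35). On the Y chromosome 5 of 17 regions were unmarked (29.4%, 13.3 to 53.1), and on the X chromosome 4 of 275. The mice are labelled female and 4 of these 5 Y regions were multi-copy (defined below). The Y share therefore cannot be read as binding on that chromosome. The 1 mitochondrial region, also multi-copy, was unmarked, but no wild-type mark library listed any mitochondrial peak. Of the 254, 122 had another unmarked region within 1 Mb, and 14 runs of 3 or more held 50. No matching count was made for marked regions, so these counts do not show clustering as a trait of the class. Some runs lay where adult regions were dense, with 5 among 34 at chr2:29889239-31573020 and 3 among 32 at chr9:123461822-124257786. The run at chr17:6241403-6506761 held 5 unmarked regions among 7 adult regions, and all 5 were multi-copy sequence as defined next. A run on chromosome 11 (93673437 to 93988339), between Utp18 and Spag9, held 4 among 7, none of them multi-copy, with highest folds of 8.77, 11.5, 5.13 and 5.06.

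Repeated sequence was commoner in the unmarked class. A region was called multi-copy where at least 50% of its 32-base words occurred more than once in the main chromosomes. This held for 36 of 254 unmarked regions (14.2%, 10.4 to 19) and for 271 of 16681 marked ones (1.62%). At least 50% of bases were in the reference's masked repeats in 15.4% of unmarked and 2.06% of marked regions. Reads from such words can be placed at more than 1 position, and what the authors did with them was not stated in the labels or headers. Around the limit, Gm33838 stood at 52.9% and Gm10801 at 48.3% of words.

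The highest-ranked member was such a site. The Gm10800 region (chr2:98666314-98667298), with 85.5% of its bases masked, was listed in 18 of 25 libraries, the largest number for any unmarked region. Its authors' pileup height was 113863, 174277 and 90939 in the 3 adult libraries, yet its fold over control was only 3.76, 1.57 and 3.37. The fold lay between 1.99 and 3.29 in the 4 P9 libraries, between 2.14 and 2.21 in P14, between 2.47 and 3.77 in macrophages, and at 2.41 and 2.37 for WT PU.1. In the adult libraries a high rank by −log10 p thus went with a low ratio. Its neighbour at Gm10801 had 1.70-fold and 1.81-fold adult peaks and was listed in 13 libraries. Other members among the 10 of highest rank also lay in repeated sequence. The region nearest Arid1b (chr17:4626168-4626598), 368 kb from the start of this chromatin remodelling subunit gene and second in rank, had 82.2% multi-copy words, 15.8-fold and 6.14-fold peaks in adult replicates 1 and 3, and none in replicate 2. The Gm33838 region stood at 1.83-fold and 2.27-fold in the same replicates. The exonic Lars2 region (a mitochondrial leucyl-tRNA synthetase, 57.9% multi-copy words) had 4.34-fold and 2.41-fold peaks there, and the intronic Ano2 region (a chloride channel, 36.4% multi-copy words and 83.2% masked bases) 12.5-fold and 3.11-fold. These 4 were listed in 4 to 6 libraries, with P9 replicate 4 among them in each case. The Gm26848 region at chr17:6490743-6491096, with 95.4% multi-copy words, had 14.7-fold and 9.10-fold peaks in adult replicates 1 and 2 and 1 P14 peak. The 120 bases around the Gm10800 summit are shown as an example of this repeated sequence, with no ETS core in capitals because none was present.
Gm10800 region, chr2:98666901-98667020, plus strand: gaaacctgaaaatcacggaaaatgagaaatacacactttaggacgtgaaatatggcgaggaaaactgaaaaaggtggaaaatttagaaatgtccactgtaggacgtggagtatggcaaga

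The 3 members at the distal end of the X chromosome and 4 of 5 on the Y chromosome were multi-copy. All words of the Y region at Gm47283 (chrY:90784081-90785306) occurred in the X region at Gm21887 (chrX:170009095-170010516), and 84.9% of the words of the latter occurred in the former. Both copies were listed in every adult library, at 8.25-fold, 11-fold and 14.5-fold for the Y copy and 6.58-fold, 8.81-fold and 12.6-fold for the X copy. The labels give female mice only.

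Most unmarked regions were listed in few libraries. Of the 21 libraries other than the 4 wild-type mark libraries that the rule set to 0, a median of 4 listed an unmarked region and 9 a marked one, and both counts include the adult libraries. Outside the adult IRF8 and wild-type mark libraries, 43 unmarked regions (16.9%, 12.8 to 22.0) had no peak in any library, against 1.26% of marked regions. Only 19 (7.48%) were listed in 10 or more libraries, 9 of them multi-copy. Besides Gm10800, those listed most widely were a region 373 kb from Kcnh5 (15 libraries, 1.38-fold to 2.27-fold in the adult) and regions in an intron of Ipo9, near 2010315B03Rik and at 2 places in an intron of Tmem267 (14 libraries each), the second of these tied in number but lower in rank. The Ipo9 region (chr1:135399292-135400791) differed from the other 5 in having no multi-copy word and adult folds of 14, 11 and 7.04. Ipo9 encodes a nuclear import receptor.

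**Figure D3:**
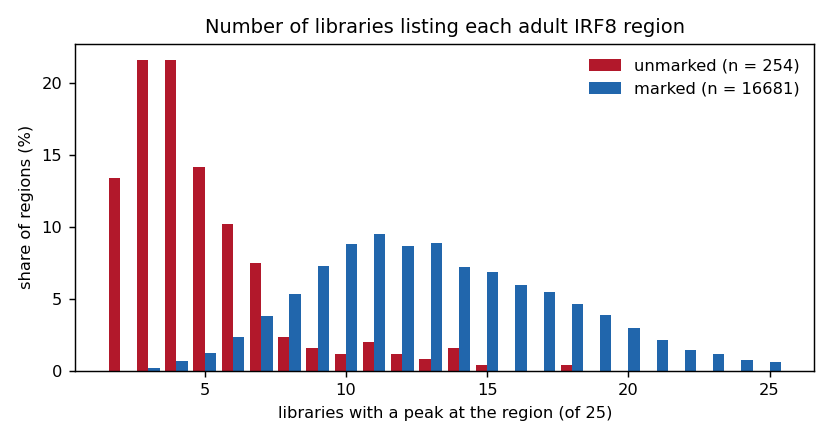
Number of the 25 libraries with a peak at each adult IRF8 region (horizontal axis) and the share of regions (%), for 254 unmarked (red) and 16681 marked regions (blue). The rule sets 4 of the 25 libraries to no peak for unmarked regions, which peak at 3 and 4 libraries.

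PU.1 was rarely found at unmarked regions. A wild-type PU.1 consensus region overlapped 15 of 254 (5.91%, 3.61 to 9.51), where the background over all adult IRF8 regions was 27%. Marked regions gave 27.4%, or 19.4% when weighted to the same strength and 16.5% when weighted to the same width. In the individual libraries PU.1 peaks stood at 13.8% and 10.2% of unmarked against 44.5% and 35.5% of marked regions, so both libraries showed the lower share. With 2 libraries an exact test over libraries cannot reach 0.05, and none was made. Of the 15, 9 were multi-copy, and without multi-copy regions the share was 2.75% (6 of 218). Unique sites with PU.1 were the Ipo9 intron (9.58-fold and 3.79-fold for PU.1), a site 39.0 kb from Ahctf1 (6.05-fold and 4.83-fold), and the start regions of Cdca5/Zfpl1 and Rgl2/Tapbp, the last named after its values were seen. The Ipo9 and Ahctf1 sites were also in the P14 and macrophage lists, at 5.42-fold to 10.0-fold in the P14 libraries that listed them and 5.91-fold to 13.8-fold in macrophages. Of the 23 members with a composite element, 1 (4.35%) overlapped a PU.1 consensus region.

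In KO microglia, PU.1 peaks in any library were found at 27 unmarked regions (10.6%, 7.41 to 15) against a background of 40.0%. The KO mark libraries, which the rule did not use, had an H3K27ac peak at 33 (13.0%, 9.40 to 17.7; background 67.5%) and an H3K4me1 peak at 132 (52.0%, 45.8 to 58.0; background 93.7%). Either KO mark was present at 150 (59.1%, 52.9 to 64.9; background 94.7%), or at 35.8% without KO H3K4me1 replicate 2, where marked regions gave 90.7%. No unmarked region held a KO H3K27ac consensus region, which both KO libraries must support, which allows a share of up to 1.49% (background 28.3%). A KO H3K4me1 consensus region stood at 61 (24.0%, 19.2 to 29.6; background 86.3%). The lists also differed in size. KO H3K4me1 replicate 2 covered 468 Mb, against 293 and 321 Mb in the WT H3K4me1 libraries that set the class. KO H3K27ac replicate 2 listed 31524 regions over 17.0 Mb, against 88400 over 65.6 Mb in replicate 1, which limits their consensus. The wild-type value is 0 by the rule, so no comparison between genotypes was made for these regions.

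IRF8 in cells of other stages and sites was independent of the rule. P9 consensus regions overlapped 16 unmarked regions (6.30%, 3.91 to 9.99; background 7.76%). P14 consensus regions overlapped 34 (13.4%, 9.74 to 18.1; background 43.2%), and macrophage consensus regions 51 (20.1%, 15.6 to 25.4; background 39.5%). Marked regions of the same strength gave 3.76%, 31.1% and 32.9%. The peak lists differ in length, with 1168 to 2068 regions per P9 library, 7931 to 19243 at P14 and 9788 to 23163 in macrophages, so shares were compared between unmarked and marked regions within a library and not between stages. Of the 254, 187 (73.6%, 67.9 to 78.7; background 41.6%) overlapped none of the 3 consensus sets. The P14 set alone held 14 (5.51%, against 17.6% of marked regions), the macrophage set alone 27 (10.6% against 15.1%), and both of these sets 20 (7.87% against 24.6%).

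At P9 the individual libraries listed 2.76%, 1.97%, 7.87% and 9.45% of unmarked regions, against 3.59%, 2.94%, 6.24% and 3.35% of marked regions of the same strength. Of the 24 unmarked regions in replicate 4, 15 were multi-copy. The P14 libraries listed 11.8%, 35.8% and 11.4% against 27.4%, 59.1% and 24.3%, and every library showed the lower share in unmarked regions. Macrophage libraries listed 27.2%, 24.8% and 9.84% against 46.2%, 38.2% and 12.3%, with the smallest gap in replicate 3, the single library of batch 2. Single libraries moved the consensus shares in both directions. Without adult replicate 2, which left 91 unmarked regions, the share was 14.3% for P9 (marked regions 14.4%), 28.6% for P14 (63.4%) and 9.89% for PU.1 (39.7%). Shares were lower without 1 library of the group itself: P9 gave 1.97% without replicate 3 and 2.36% without replicate 4, P14 gave 5.51% without replicate 2, and macrophages gave 7.48% without replicate 1 and 7.09% without replicate 2. Under these latter settings marked regions without weighting gave 5.21% and 6.58% at P9, 23.2% at P14, and 12.2% and 13.2% in macrophages; shares weighted by strength were not computed for them.

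**Figure D4:**
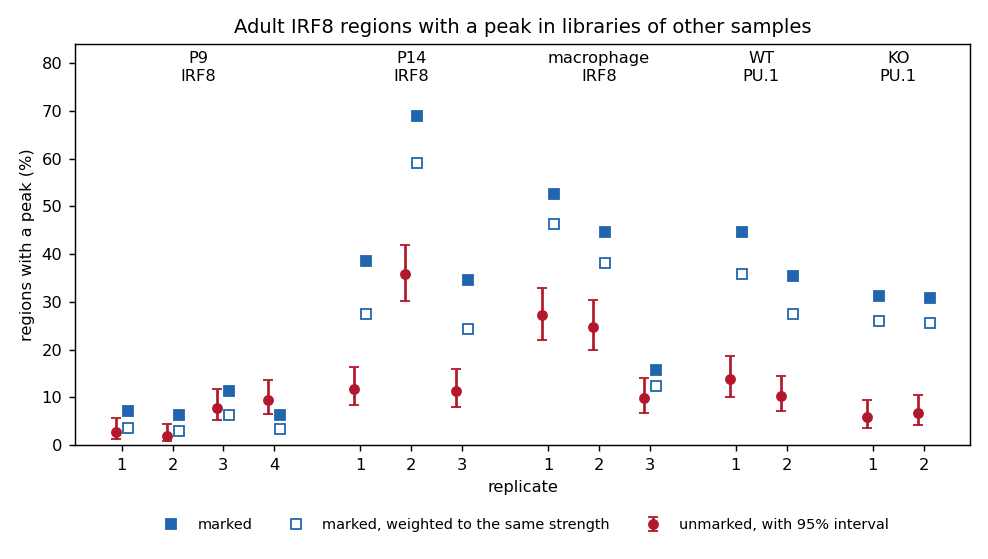
Share of adult IRF8 regions (%) with a peak in each library that the rule did not use, by replicate. Red circles are unmarked regions with 95% Wilson intervals, filled blue squares marked regions and open squares marked regions weighted to the strength of the unmarked ones. P14 and PU.1 values are lower for unmarked regions in every library, and P9 replicate 4 is higher.

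Over the 10 IRF8 libraries of P9, P14 and macrophages, the share of unmarked regions with a peak minus that of marked regions of the same strength averaged −8.08 percentage points (SD 9.94, n = 10 libraries, lower in 8 of 10), with an exact two-sided sign-flip p = 0.0391, where 0.00195 is the smallest p possible. The mean difference was 1.48 ± 3.30 points at P9 (SD, n = 4), −17.2 ± 5.39 at P14 (SD, n = 3) and −11.6 ± 8.43 in macrophages (SD, n = 3). Unmarked regions are narrower, and the call did not hold when marked regions were weighted by width (−5.14 points, exact p = 0.0801) or when peaks had to overlap the central 200 bp (−4.24 points, exact p = 0.121). It was also lost as a log2 odds ratio (exact p = 0.119), without the macrophage libraries (exact p = 0.188), and without any 1 of the P14 libraries or macrophage replicate 1 or 2 (exact p = 0.0781 in each case). Without multi-copy regions, a setting chosen after seeing the data, the difference was −9.85 points (exact p = 0.00977), and it was then also past 0.05 by width (−7.50, exact p = 0.0137) and in the central 200 bp (−5.80, exact p = 0.0273). Keeping only regions listed in fewer than 10 libraries, a setting that itself counts the tested libraries, reversed it to 2.59 points (exact p = 0.0254). The exact p over all 36 alternatives ranged from 0.00391 to 0.5. The highest came with 1 value per group (−9.14 points, n = 3), a setting that cannot pass 0.05. Stages were compared on the log2 odds ratio of unmarked against marked regions, which averaged 0.31 at P9, −1.38 at P14 and −0.81 in macrophages. No pair of the 3 groups passed 0.05 (exact two-sided permutation p = 0.0571 for P9 against P14, 0.143 for P9 against macrophages and 0.1 for P14 against macrophages, each 0.143 after Benjamini-Hochberg adjustment). The smallest p possible was 0.0286 for the pairs with P9 and 0.1 for the last pair, which could therefore not pass, so these tests do not show that the groups were alike.

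Multi-copy and other unmarked regions are given side by side, with no test between them. Among the 36 multi-copy members, 27.8% overlapped a P9 consensus region (15.8 to 44.0), 22.2% a P14 (11.7 to 38.1), 41.7% a macrophage (27.1 to 57.8) and 25% a PU.1 consensus region (13.8 to 41.1), and none held the composite element, which with 36 regions allows up to 9.64%. The 271 marked multi-copy regions gave 14% for P9, 39.9% for P14, 36.9% for macrophages and 30.3% for PU.1. Among the other 218, 2.75% overlapped P9 (1.27 to 5.87), 11.9% P14 (8.27 to 16.9), 16.5% macrophage (12.2 to 22.0) and 2.75% PU.1 consensus regions (1.27 to 5.87), and 10.6% held the composite element (7.13 to 15.3). These intervals cover counting error only and treat regions as independent, though some members share sequence. Whether they overlap was therefore not read as a difference or a likeness between the classes. Of the 16 members with a P9 consensus region, 14 were masked over at least 50% of their bases. The others were the Zzef1 exon, which had no multi-copy word, and an intronic region of Smyd3, named after its values were seen, with 95.7% multi-copy words.

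**Figure D5:**
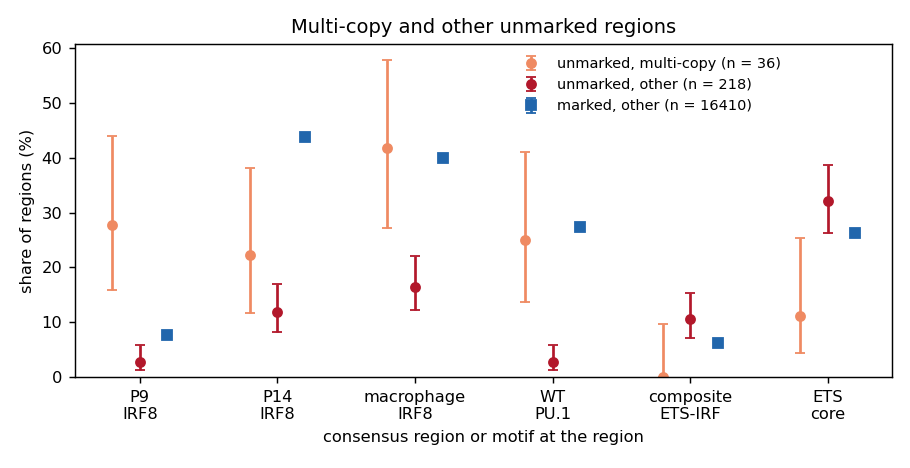
Share of regions (%) with a consensus region of each kind or a motif, for 36 multi-copy unmarked regions (orange), 218 other unmarked regions (red) and 16410 other marked regions (blue squares), with 95% Wilson intervals. P9 and PU.1 overlap is 27.8% and 25% in multi-copy members and 2.75% in the others.

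The labels place adult replicates 1 and 2 in batch 1 and replicate 3 in batch 2, so every region had support from batch 1. Batch 2 also supported 164 unmarked regions (64.6%, 58.5 to 70.2), 63.6% of marked regions and 55.1% of marked regions of the same strength. The combinations differed: 75 unmarked regions (29.5%) had a peak in all 3 libraries against 51.1% of marked regions, 72 (28.3%) in replicates 2 and 3 only against 11.3%, 17 (6.69%) in replicates 1 and 3 only against 1.17%, and 90 (35.4%) in replicates 1 and 2 only against 36.4%. Replicate 2, with 24705885 fragments against 7510600 and 7250496, contributed to 237 of the 254. Since these libraries chose the regions, no test was made. Without the single batch 2 library 165 regions were unmarked, without replicate 1 148 and without replicate 2 91, since both remaining libraries then had to list a region. Without WT H3K4me1 replicate 1 there were 436 and without its replicate 2 385.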

How the data were processed

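Per the file headers, the authors called peaks for each of 25 libraries separately with MACS (2.2.7.1 for IRF8 and PU.1, 2.2.6 for the marks) against an IgG control, with duplicates kept. The threshold was q 0.01 (0.05 for PU.1 replicate 2) with gaps up to 640 bp joined, or p 0.01 for broad H3K4me1 regions of at least 1000 bp. Trim Galore, Bowtie2 and mm10 are named in the submitters' processing notes. The deposited lists give a −log10 p and q, a fold enrichment ratio over the control background and a pileup signal for each peak, all of them the authors' values; they hold no counts for regions without a peak. The labels give batches for the adult and macrophage IRF8 libraries only.

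From these lists, merged regions, overlaps of at least 1 bp, positions in GENCODE M21, masked bases and 32-base word copies in RefSeq GRCm38.p6, and motif matches were computed in Python 3.11.15 with numpy 2.4.6, pandas 2.3.3 and scipy 1.17.1. Marked regions were weighted to unmarked ones over 10 bins of strength. Intervals are Wilson 95%. The paired difference was tested with an exact sign-flip test, which was tested on simulated data. Named regions were the 10 strongest, the 10 strongest at protein-coding starts and with PU.1, the 5 in most libraries, the 6 strongest with the composite element, and those at listed genes. Macrophage libraries were assigned by title, although their source label says microglia. The members, lists and tests were chosen with earlier results of these data known.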

Additional observations from a re-analysis of the deposited data

How the results depend on the processing

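Redefining the class moved its size and several shares by more than the spread of counting. With a mark called only where both libraries had it, 912 regions were unmarked. Here and below, the share of marked regions follows in brackets. Of the 912, 31% (33.6%) lay within 1 kb of a start, 19.5% (44.5%) had a P14 and 25.5% (40.3%) a macrophage consensus region. A KO mark stood at 71.8% (96.0%). With H3K27ac alone deciding, 1187 were unmarked, 20.8% (44.9%) with P14 and 75.1% (96.2%) with a KO mark. With H3K4me1 alone, 462 were unmarked, 41.1% near a start, 9.96% (27.5%) with PU.1 and 21% (43.8%) with P14. Macrophage IRF8 stood at 26.8% (39.9%) and a KO mark at 71.4% (95.4%). The share near starts was then above the 33.2% of marked regions. Requiring all 3 adult libraries left 75, with 10.7% (40.3%) for PU.1, 10.7% (14.5%) for P9 and 30.7% (64.0%) for P14. By construction, 100% of each class were then in both batches. A −log10 p of at least 10 left 78, with 21.8% (65.0%) for P14 and 46.2% (47.8%) in both batches. Without multi-copy regions, an alternative chosen after seeing the data, PU.1 and P9 fell to 2.75% each (27.3% and 7.68%).

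Other settings moved single shares. A window of 500 bp gave 13.4% near starts, with the share of marked regions (27.3%) again in brackets. A peak in any library gave 17.7% (51.9%) for PU.1, 12.6% (16.4%) for P9, 40.2% (73.7%) for P14 and 35.4% (60.5%) for macrophages. A KO consensus gave 24.0% (87.6%) for KO marks. The paired difference lost its call by width (−5.14 points), in the central 200 bp (−4.24), without macrophage libraries (−6.55), with 1 value per group (−9.14, where 3 values cannot pass) and as a log2 odds ratio (−0.53, chosen after seeing the data). Keeping only regions listed in fewer than 10 libraries reversed it to 2.59 points (exact p = 0.0254). Shares were then 2.13% (0.633%) for PU.1, 1.70% (0.0288%) for P9, 7.66% (6.47%) for P14 and 14% (6.70%) for macrophages. For PU.1 too, the order of unmarked and marked regions thus turned. That setting counts the marks and the tested libraries themselves, so it removes 79.1% of marked but 7.48% of unmarked regions.

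Leaving out 1 replicate at a time gave 91 (without adult replicate 2) to 436 unmarked regions (without WT H3K4me1 replicate 1), with 148 and 165 without adult replicates 1 and 3 and 385 without WT H3K4me1 replicate 2. Shares ranged from 15.4% to 29.0% near starts, 5.28% to 13.8% for PU.1, 1.97% to 14.3% for P9, 5.51% to 28.6% for P14, 7.09% to 24.2% for macrophages, 61.0% to 100% for both batches and 35.8% to 64.4% for KO marks. The difference ranged from −11.4 to −6.39 points and missed 0.05 without any 1 of the P14 libraries or without macrophage replicate 1 or 2 (exact p = 0.0781 in each case). It was negative under 35 of 36 alternatives and past 0.05 under 26, the reversed one included. No paired analysis was possible because no label ties a replicate number to a shared mouse, litter or day across the stages compared. Only listed peaks can be seen, so a region without a peak may hold signal below the authors' threshold.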

Other observations

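Values for subsets of the unmarked regions are given here with no test, and several rest on small counts. The composite ETS-IRF element stood in 4 of 75 unmarked regions with peaks in all 3 adult libraries (5.33%) and in 19 of 179 with peaks in 2 (10.6%). It stood in 1 of 34 with a P14 consensus region (2.94%) and in 22 of 220 without one (10.0%), and in 5 of 51 with a macrophage consensus region (9.80%). PU.1 consensus regions overlapped 8 of the 48 unmarked regions near starts (16.7%) and 7 of the other 206 (3.4%). Multi-copy sequence made up 12.5% of the former and 14.6% of the latter. Of the 34 with a P14 consensus region, 20 (58.8%) also had a macrophage consensus region, against 31 of the 220 others (14.1%). Marked regions showed such joint listing too. Of the 7278 marked regions with a P14 consensus region, 4110 also had a macrophage one, against 39.8% of all marked regions. In all of these subsets the median highest fold in the adult lay between 3.6 and 7.99, with the lowest value for the 16 regions that had a P9 consensus region.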
